A study of Homo sapiens with 21 samples.

Results

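The genes described here are the 80 cytosolic ribosomal protein genes measured in HMLE cells over a TGFβ time course. They were found by name among the 23201 gene symbols of the deposited expression table, as symbols of the RPL and RPS series together with RPSA, RPLP0, RPLP1 and RPLP2, leaving out pseudogenes and the RPS6K kinases, and then by keeping those whose mean over the 21 libraries was 100 or more. Of the 87 symbols that fitted the name, 80 passed this minimum, 49 of the large and 31 of the small ribosomal subunit, and 7 did not. The passing genes closest to the minimum were RPL36A with a mean value of 130.3 and RPL39L with 446.1, and the nearest symbols under it were RPL3L with 3.24 and RPL21 with 0.28. RPL10L was listed at 0 in every library, as were the readthrough symbols that join RPL17, RPL36A and RPS10 to their neighbours, and the 27 pseudogene symbols of the family held 0.006% of the total value. Reads of genes with near-identical copies or overlapping neighbours may be missing from the table or split between symbols, which was not tested.

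HMLE is an established line of human mammary epithelial cells immortalized with telomerase and viral large T antigen. RNA was sequenced from untreated HMLE cells (d0) and from HMLE cells after 1, 4, 7, 10, 15 and 20 days of TGFβ (d1 to d20), a cytokine that drives epithelial-mesenchymal transition (EMT), with 3 libraries per timepoint and 21 in all. All groups were the same line, and the labels name no untreated culture of a later day, so days of TGFβ and days in culture cannot be told apart. The study's text describes the 3 libraries of a timepoint as biological triplicates.

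Each cytosolic ribosome is built from one copy of most ribosomal proteins on a scaffold of ribosomal RNA, so their mRNAs belong to the most abundant and most evenly expressed of dividing cells. Most of these mRNAs begin with a terminal oligopyrimidine (TOP) motif, a C followed by an unbroken run of pyrimidines, through which mTOR and LARP1 control their translation and stability. Ribosome assembly also needs RNA polymerase I and a large set of nucleolar assembly factors, and free RPL5 and RPL11 are known to bind MDM2.

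The transcript starts of the genes the results turn on are shown because the TOP motif is the sequence feature these genes share and the name rule did not use it. The windows run from 10 bases before to 20 bases after the annotated start, 5′ to 3′ on the sense strand (RefSeq, GRCh38.p14), and capitals mark the C at the first transcribed base with the C and T bases that follow it without a break. RPS6, RPLP0, RPL13A, RPL22, RPL22L1, RPS19 and RPL28 carried such a run, and the paralogues RPS27L and RPL7L1 did not.
RPS6, chr9:19380217-19380246, minus strand: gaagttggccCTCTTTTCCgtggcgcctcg
RPLP0, chr12:120201092-120201121, minus strand: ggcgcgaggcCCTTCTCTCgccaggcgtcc
RPL13A, chr19:49487598-49487627, plus strand: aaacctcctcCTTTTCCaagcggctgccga
RPL22, chr1:6199576-6199605, minus strand: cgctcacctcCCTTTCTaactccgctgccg
RPL22L1, chr3:170870176-170870205, minus strand: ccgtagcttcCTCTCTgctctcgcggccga
RPS19, chr19:41860245-41860274, plus strand: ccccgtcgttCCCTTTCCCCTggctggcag
RPL28, chr19:55385922-55385951, plus strand: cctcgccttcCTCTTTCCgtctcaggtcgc
RPS27L, chr15:63157458-63157487, minus strand: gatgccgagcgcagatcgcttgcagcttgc
RPL7L1, chr6:42879606-42879635, plus strand: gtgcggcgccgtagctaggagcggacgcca

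A C at the first base followed by at least 4 C or T bases, read on the sense strand only and at any start listed for the gene, was found for 46 of the 65 ribosomal protein genes with an entry (70.8%). Over all 27305 symbols of the same reference table the share was 5.14%, and over the 9253 tested genes with an entry it was 7.46%. The genes without the run included RPL3, RPL4, RPL10A, RPS26, RPS29 and the paralogues RPL26L1, RPL7L1 and RPS27L. A run that starts a few bases from the listed start is not counted by this search, so a missing run says only that these letters are not at this base.

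The deposited values are reads scaled by a size factor of the library and rounded to 2 decimals, and the whole reads behind them summed to between 18847917 and 22667754 per library. Genes with a mean value of 10 or more, 13343 in all, were tested with limma on log2(value + 1), and a gene was called higher or lower at a Benjamini-Hochberg adjusted p under 0.05 over all genes tested, whatever the size of the change. Libraries of one timepoint outside d7 had root mean square differences of 0.041 to 0.1 (log2) over the 80 genes. At d7, libraries 1 and 2 differed by 0.106, and library 3 differed from them by 0.192 and 0.217, so the d7 values that moved most with library 3 are also given without it. Without library 3 the other log2 differences of single genes printed for d7 stayed within 1.5 times of their values and were still called. The 9 mammary and basal epithelial markers checked were all detected in every timepoint, and of 9 markers of blood, endothelial and liver cells 6 had at most 3 reads in every library of each timepoint. CD14, PECAM1 and VWF made up the rest, and the summed value of the 9 was 91.7 to 105.2 at d0 and at most 44.2 in treated cells, against epithelial sums of at least 201391. In bulk RNA, fewer cells of a type and less RNA per cell cannot be told apart.

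The ribosomal protein genes lay below the untreated level on d1, d4, d7 and d10 as a summed share, came back close to it at d15, and fell again at d20. Their summed share of the library total was 7.99% ± 0.095 (SD, n = 3) on d0, 6.30% ± 0.082 on d1, 5.84% ± 0.076 on d4, 6.68% ± 0.419 on d7, 5.74% ± 0.057 on d10, 7.56% ± 0.11 on d15 and 6.02% ± 0.057 on d20. The single d15 libraries lay at 7.45%, 7.57% and 7.67%, above every library of d1, d4, d10 and d20, whose shares were between 5.67% and 6.39%. The d0 libraries, between 7.90% and 8.08%, lay above all of d15. At d7 the shares were 6.81%, 7.01% and 6.21%, library 3 being the lowest, and the mean without it was 6.91%. The small-subunit genes made up 3.12% of the total on d0, 2.23% on d10 and 2.95% on d15, and the large-subunit genes 4.88%, 3.50% and 4.61%. Without the 3 genes with the most reads the share was 5.04% at d10 and 6.64% at d15.

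**Figure D1:**
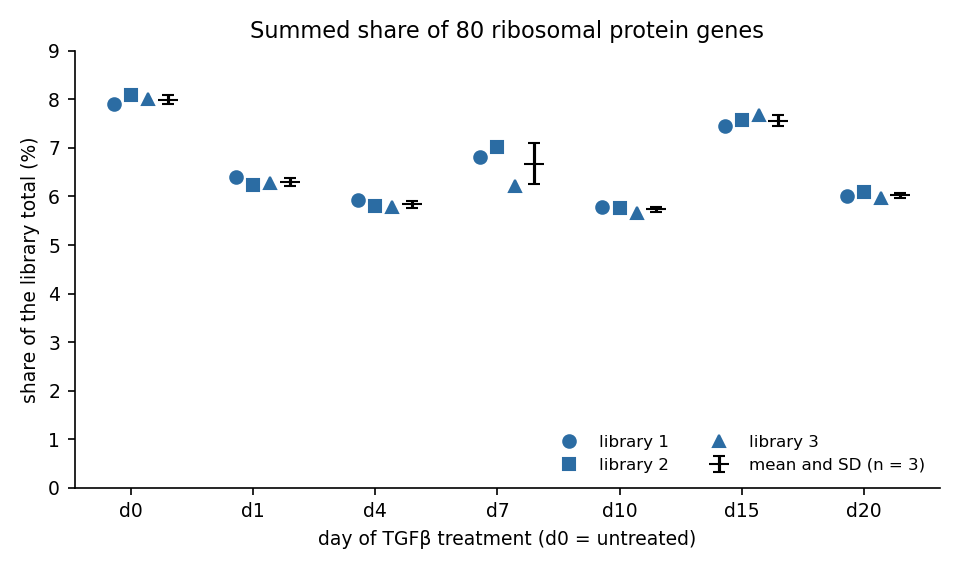
Summed value of the 80 ribosomal protein genes as a percentage of each library's total (y axis, from 0) by timepoint (x axis), with circles, squares and triangles for libraries 1, 2 and 3 and black bars for the mean and SD of 3 libraries. The d0 libraries lie between 7.90% and 8.08%, the d15 libraries between 7.45% and 7.67%, and the d10 libraries between 5.67% and 5.77%.

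Tested one by one against untreated cells, 50 of the 80 genes were lower at d1 and none higher, where 28.5% of all genes tested were called lower and 31.3% higher. The tools edgeR and DESeq2 also called no member higher at d1, and none was higher at an unadjusted p under 0.05 in limma, edgeR or DESeq2. In limma 1 member was called higher with d0 and d1 alone in the fit, 1 without the d7 libraries and 1 without library 3 of d0. At d4, 71 genes were lower and 2 higher (35.3% and 36.9% of all genes), at d10 63 were lower and 3 higher (30.7% and 37% of all genes), and at d20 58 were lower and 2 higher (30.2% and 32.5% of all genes). The median log2 difference from d0 was -0.14 on d1, -0.27 on d4, -0.22 on d10 and -0.19 on d20, that is a median change of -9.23%, -17.1%, -14.2% and -12.4%. Over all genes tested, the medians on these days lay between 0.00 and 0.03. At d4 all 3 treated libraries lay below all 3 untreated ones for 71 members, as they did for 37.9% of all genes.

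At d7, 35 genes were lower and 7 higher than in untreated cells (32.6% and 34.6% of all genes), with a median of -0.09. The 7 were RPL10, RPL13, RPL28, RPLP1, RPS15, RPS19 and RPS27L. Without library 3, 31 were lower and 21 higher, so the count of increases at d7 depended on this library. With d0 and d7 alone in the fit, 17 genes were lower and 3 higher.

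At d15, 30 genes were higher, 13 lower and 37 not called against untreated cells (39.2% and 37.3% of all genes called higher and lower), with a median of 0.06. These directions depended on the scaling, since 8 were higher and 43 lower with every library rescaled to the same total, and 6 were higher and 47 lower after quantile normalization. Of the 13343 genes tested, 4044 were higher and 6296 lower at d15 with the same total. After quantile normalization 4890 of them were higher and 5370 lower. Rescaling to the same total moved the median of all genes from near 0 to between -0.14 and -0.20 on every treated day. Of all genes called against d0 on a treated day, 51.1% to 54.6% were higher as deposited, 26.7% to 39.1% with the same total and 41.9% to 47.7% after quantile normalization. The summed value of a library averaged 18440199 at d0 and 20593938 to 21585357 on treated days. With the same total the members' median was -0.10 at d15, where that of all genes was -0.14, and it was between -0.47 and -0.33 at d1, d4, d10 and d20. On d1, d4, d10 and d20 most members were called lower under all 3 scalings, with 72 to 76 lower on each of these days under both alternatives. Of the 13343 genes tested, 6602 to 6778 were lower on these days with the same total, and 4642 to 5461 after quantile normalization.

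The step from d10 to d15 and the step from d15 to d20 kept their directions under every scaling tried. From d10 to d15, 66 of the 80 genes rose and 6 fell (39.3% and 40.5% of all genes), with a median log2 difference of 0.31, a median change of 23.6%. From d15 to d20, 66 fell and 6 rose (36.3% and 37.7% of all genes), with a median of -0.28, a change of -17.5%. Both steps share the d15 libraries. All 3 d15 libraries lay above all 3 d10 libraries for 67 genes, as they did for 41.2% of all genes. Genes with a short longest transcript, under 1000 bases and not ribosomal proteins, moved the other way on both steps. The median over 304 of them was -0.24 from d10 to d15 and 0.19 from d15 to d20. Against d0 their median was 0.02, -0.16, -0.15, 0.03, -0.25 and -0.03 in order of the treated days. On d4 and d7 they fell as the members did. The members' own longest transcripts had a median of 1864.5 bases, so these genes are not matched to them in length. The part of transcript length was not tested.

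**Figure D2:**
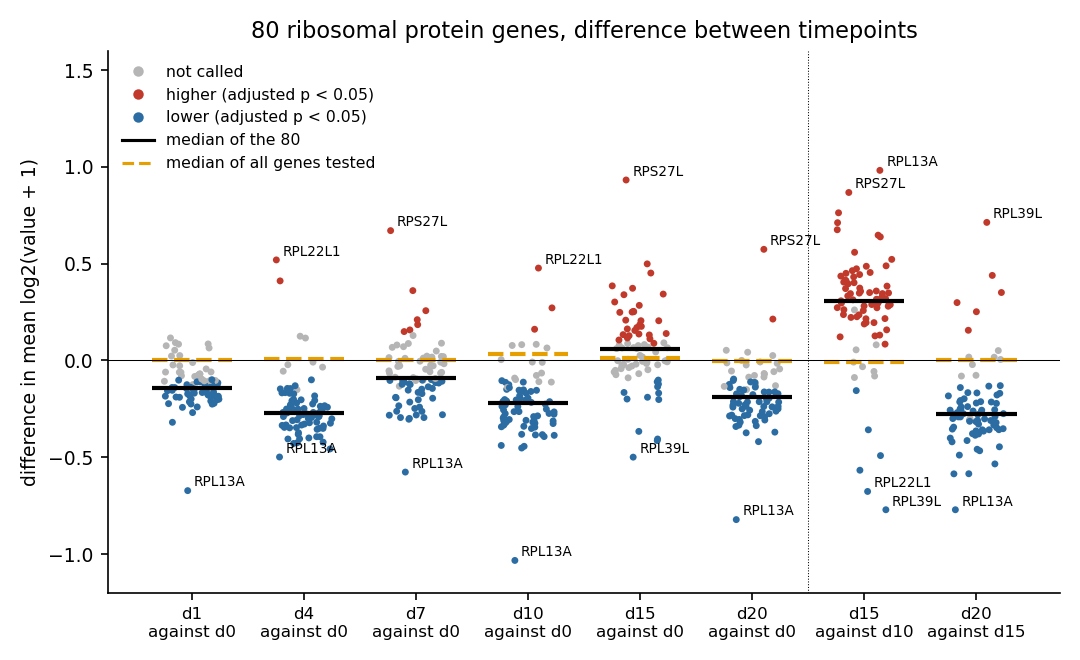
Difference in mean log2(value + 1) of each of the 80 ribosomal protein genes (points, y axis) for the 6 treated days against d0 and for the steps d10 to d15 and d15 to d20 (x axis), coloured by the limma call, with the median of the 80 as a black line and that of all genes tested as a dashed line. The black line lies at -0.27 on d4 and -0.22 on d10, rises to 0.06 on d15, and is 0.31 for d15 against d10 and -0.28 for d20 against d15.

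Over the 7 timepoints, 79 of the 80 genes changed by a moderated F test in limma, where 95.9% of all genes tested did. RPL17, a protein at the exit of the peptide tunnel, was the exception (adjusted p = 0.3658), with means between 1138 at d20 and 1263 at d0. RPL17 has a readthrough symbol that stood at 0, as do RPS10 and RPL36A, whose d0 means were 1226 and 118. Reads of RPL17 may therefore be missing from its value, which was not tested. The timepoint with the highest mean was d15 for 45 genes and d0 for 27, and the lowest was d4 for 41 and d10 for 32. Highest and lowest timepoints were not counted over all genes tested, so these numbers cannot be set against a share. RPL22, RPL23A, RPL7A and RPS23 were called lower on each of the 6 treated days, in comparisons that share the d0 libraries. The d15 calls of RPL22, RPL23A and RPL7A were lost without single libraries, as given below. The share of all genes called lower on all 6 days is not given, so these genes cannot be set against it. The smallest ranges among genes that changed belonged to RPL18, whose means ran from 11470 on d4 to 13490 on d15, and RPL23, from 14200 on d4 to 16760 on d15.

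**Figure D3:**
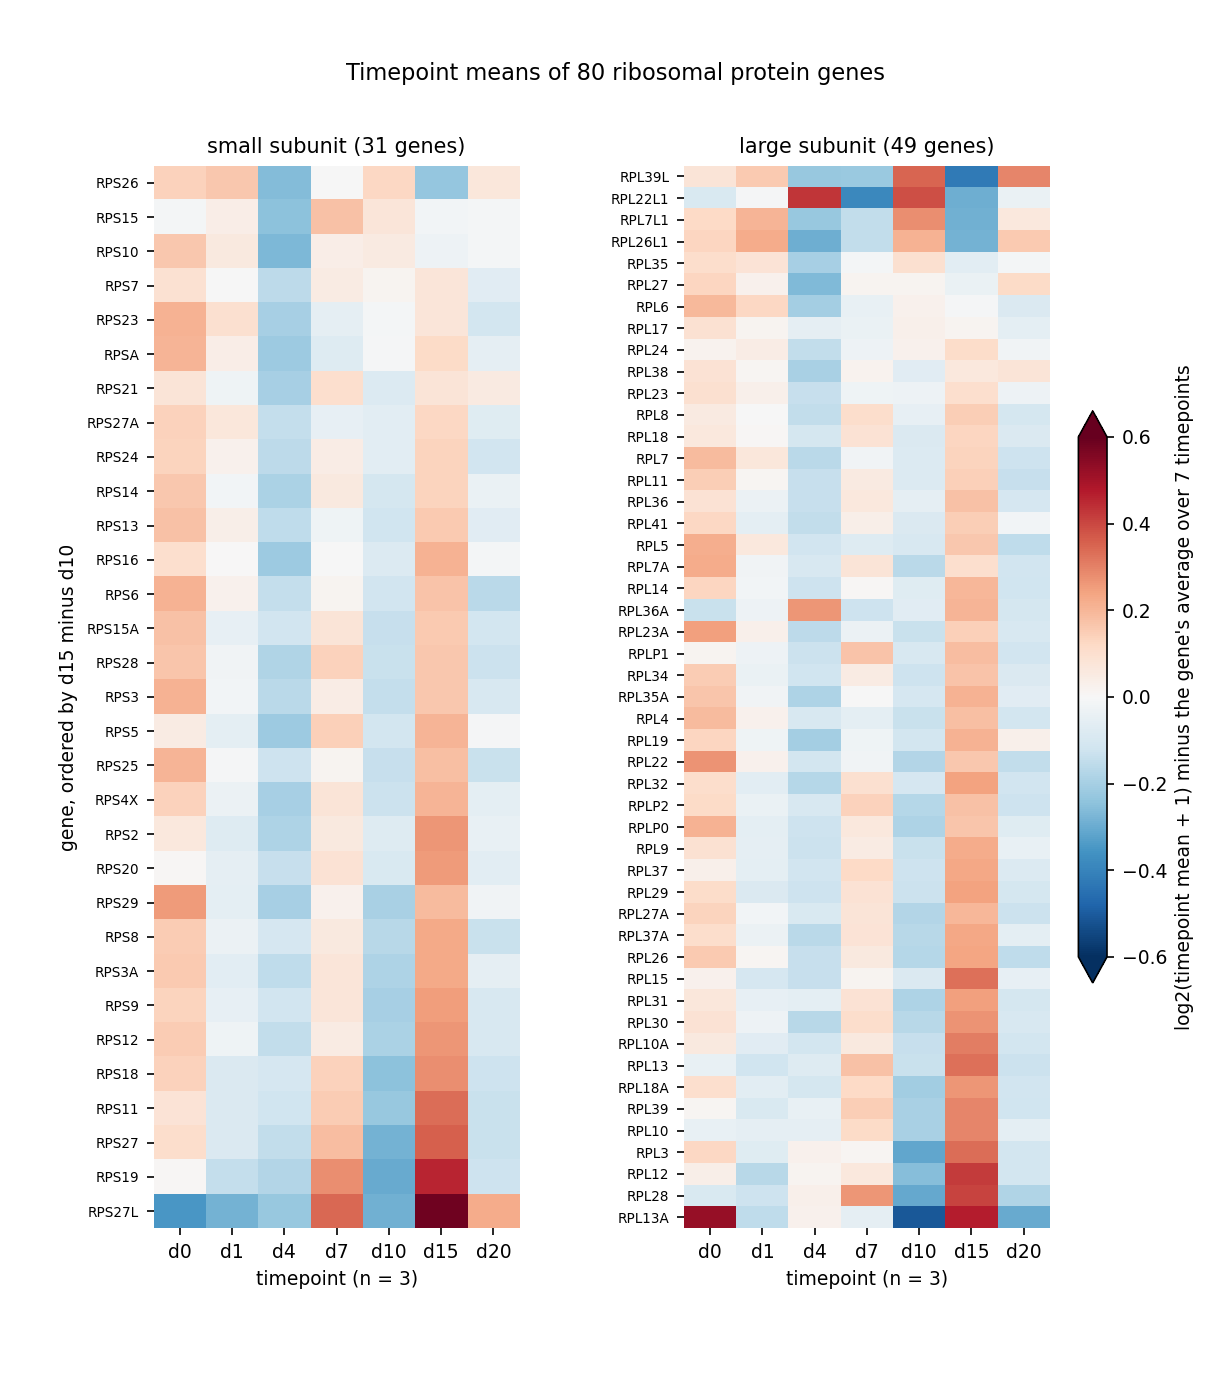
Timepoint means (n = 3, columns) of the 31 small-subunit and 49 large-subunit genes (rows), as log2(mean + 1) minus the gene's own average over the 7 timepoints, red above and blue below it, with rows ordered by d15 minus d10. Most rows are red on d0 and d15 and blue on d4, d10 and d20, while RPL39L, RPL22L1, RPL7L1, RPL26L1 and RPS26 at the top of the panels are blue on d15.

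Most genes of the small subunit followed this course in their mRNA. RPS6, the protein phosphorylated by the S6 kinases, had values of 21633, 22438 and 22020 on d0, 19953, 19270 and 18945 on d1, 18088, 16235 and 17377 on d4, and 19478, 20397 and 17931 on d7. Its values were 17879, 17414 and 17432 on d10, 21161, 21743 and 21515 on d15, and 16546, 17460 and 17132 on d20. All libraries of d1, d4, d10 and d20 lay below every d0 and d15 library, and the d15 values lay within or just under the d0 range. RPS6 fell by 0.36 ± 0.04 (log2, standard error) at d4 (adjusted p = 3.176e-07) and by 0.37 at d20, and it rose by 0.29 from d10 to d15. RPS3 fell by 0.37 on d4 and by 0.35 on d10, and RPS2, which like RPS3 lines the mRNA entry channel, fell by 0.25 on d4 and was 0.21 higher than untreated on d15. That increase of RPS2 at d15 turned to -0.58 under quantile normalization. At the mRNA exit side, RPSA, a laminin receptor precursor, fell by 0.42 on d4 (8443 ± 135 to 6308 ± 342) and by 0.26 on d20, and RPS14 fell by 0.35 on d4 and by 0.20 on d20.

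Of the 6 small-subunit genes listed for their roles, RPSA, RPS2, RPS3, RPS6, RPS14 and RPS26, all fell at d4, and 5 rose from d10 to d15. RPS26, which contacts the mRNA just upstream of the exit site, was the other one. Its mean was 3619 ± 352 on d0, 3673 ± 114 on d1, 2746 ± 94.8 on d4, 3286 ± 162 on d7, 3588 ± 102 on d10, 2803 ± 202 on d15 and 3443 ± 57.1 on d20. The d15 libraries, at 2985, 2585 and 2840, lay below every d10 library, of which the lowest was 3512. RPS26 thus fell by 0.36 ± 0.06 from d10 to d15 (limma, adjusted p = 9.061e-06) and rose by 0.30 from d15 to d20 (adjusted p = 9.508e-05).

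Among the large-subunit genes, the acidic stalk, which recruits the translation GTPases, is made of RPLP0, RPLP1 and RPLP2. RPLP0 fell from 58420 ± 906 on d0 to 46310 ± 598 on d4 and 44480 ± 65.4 on d10, and it was 56730 ± 884 on d15. This was a log2 difference of -0.34 on d4 and -0.39 on d10 from untreated cells (adjusted p = 4.7e-08 on d10), and of 0.35 from d10 to d15. RPLP2 fell by 0.29 at d10 and rose by 0.35 to d15, and RPLP1 rose by 0.28 on that step. RPLP1 was 0.15 higher than untreated at d7 and 0.17 higher at d15. At d7 the difference was 0.24 without library 3 of d7, and the call was lost without library 1 or 2 of d7 (0.11 and 0.097, adjusted p = 0.139 and 0.1678) and without library 1 or 3 of d0 (0.15 and 0.11, adjusted p = 0.05848 and 0.1391). The d15 call was lost without library 3 of d0 (0.13, adjusted p = 0.07156). The value at d7 turned to -0.042 with libraries rescaled to the same total, and both turned, to -0.069 and -0.12, under quantile normalization.

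RPL5 and RPL11, which carry the 5S RNA, both fell at d4, by 0.33 and 0.29. At d20 RPL5 fell by 0.37 ± 0.03 (27920 ± 808 to 21550 ± 523, adjusted p = 2.949e-09) and RPL11 by 0.29 (24220 ± 433 to 19870 ± 587). Neither was called at d15. RPL3, a core protein near the peptidyl transferase centre, fell from 47020 ± 1091 on d0 to 34680 ± 621 on d10, by 0.44 on the log2 scale, and rose to 54310 ± 880 on d15, a step of 0.65 ± 0.04 (adjusted p = 1.57e-12). RPL3 was 0.21 above untreated at d15, and -0.19 after quantile normalization. RPL10A was lower by 0.20 on d10 and higher by 0.25 on d15, and RPL38 was lower by 0.28 on d4 and by 0.15 on d10.

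Of the 7 genes of proteins around the tunnel exit, 5 fell at d4 and 5 rose from d10 to d15. RPL23A, one of them and a docking site for the signal recognition particle, fell by 0.40 at d4 and was still lower by 0.10 at d15 (adjusted p = 0.01025), a call lost without library 3 of d0 or library 2 of d15 (log2 differences of -0.082 in both, adjusted p = 0.05539 and 0.05799). RPL35, another, fell by 0.16 from d10 to d15. RPS23 was lower by 0.41 on d4 and by 0.14 on d15, and RPL7A by 0.38 on d10 and by 0.12 on d15. The d15 call of RPL7A was lost without library 3 of d0 or library 2 of d15 (log2 differences of -0.10 and -0.11, adjusted p = 0.06125 and 0.05032). RPL27 rose by 0.16 from d15 to d20, against the majority.

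RPL13A, a large-subunit protein also known for a role in translational silencing and for the small nucleolar RNAs in its introns, had the widest range of all 80. Its values were 7517, 7358 and 7733 on d0, 4790, 4691 and 4701 on d1, 5372, 5533 and 5102 on d4, and 5118, 5238 and 4811 on d7. They were 3500, 3825 and 3728 on d10, 7236, 7236 and 7349 on d15, and 4210, 4444 and 4135 on d20. Every library of d1, d4, d7, d10 and d20 lay below every library of d0 and d15. RPL13A fell by 1.03 ± 0.04 on the log2 scale on d10 (adjusted p = 3.17e-15), a change of -51.1%, and by 0.67 on d1, 0.50 on d4, 0.58 on d7 and 0.82 on d20. At d15 its difference from untreated was -0.05 (adjusted p = 0.2625), and the step from d10 to d15 was 0.98. It was the lowest of the 80 in log2 difference on d1, d4, d7, d10 and d20.

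Relative to the mean of the 80 genes in each library, a measure that does not depend on the library's scale, RPL13A was lower on all 6 days, by 0.55 on d1, 0.82 on d10 and 0.64 on d20. RPL13A pseudogenes listed in the table had timepoint means of at most 9.8, and whether reads of the gene were shared with copies not listed was not tested. RPS29, a small zinc-binding protein of the small subunit, was second lowest on d1, d4 and d10, with log2 differences of -0.32, -0.46 and -0.45 (means 6263 ± 340 on d0 and 4561 ± 210 on d4).

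RPL28 and RPS19 showed the largest increases at d15 beside RPS27L, measured relative to the other members. RPS19, a small-subunit protein needed for maturation of its ribosomal RNA and mutated in Diamond-Blackfan anaemia, had values of 17698, 18895 and 18196 on d0, 14839, 15001 and 14311 on d10, and 25191, 25099 and 24622 on d15. The d15 libraries lay above every library of the other timepoints except library 2 of d7, and the difference was 0.45 ± 0.08 from d0 (adjusted p = 1.822e-05) and 0.76 from d10. At d7 its libraries were 23547, 24757 and 17820, library 3 lying within the d0 range, and the difference from d0 was 0.26, or 0.40 without library 3 and -0.029 after quantile normalization. Without library 2 of d7 it was 0.17 and not called (adjusted p = 0.05579). RPL28 was 9680 ± 820 on d0, 8332 ± 107 on d10 and 13660 ± 883 on d15. It was higher by 0.36 on d7 and by 0.50 on d15 (adjusted p = 5.694e-08) and lower by 0.21 on d10. RPS27 was likewise lower by 0.39 at d10 and higher by 0.25 at d15.

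Relative to the mean of the 80, 7 genes were higher and 9 lower on d1, 12 and 21 on d4, 17 and 20 on d7, 15 and 24 on d10, 20 and 21 on d15, and 14 and 18 on d20. On this scale the shares of all genes called higher and lower were 41.1% and 16.9% on d1, 52.2% and 18.5% on d4, 38.3% and 24.3% on d7, 53.5% and 17.8% on d10, 35% and 39.4% on d15, and 47% and 15.7% on d20. Subtracting the mean of the 80 centres them on 0 by construction and shifts all other genes against their change. A gap between the counts of members and these shares is therefore no separate result. RPL22, RPL5 and RPL13A were the lowest of the 80 at d20, at -0.24, -0.20 and -0.64. RPS27L, RPL39L and RPL22L1 were the highest at d20, at 0.75, 0.39 and 0.23.

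Several genes that went against the rest were paralogues, copies of a ribosomal protein gene whose products can replace the parent protein or have taken on related roles. The 6 genes that fell from d10 to d15 were RPL22L1, RPL26L1, RPL35, RPL39L, RPL7L1 and RPS26, and 4 of them are paralogues. RPL22L1, RPL26L1, RPL39L and RPL7L1 also made up 4 of the 6 that rose from d15 to d20, beside RPS26 and RPL27. RPL22L1, the paralogue that RPL22 protein is known to repress, had values of 671, 626 and 600 on d0, 698, 660 and 653 on d1, 962, 805 and 959 on d4, and 474, 591 and 482 on d7. Its values were 925, 905 and 814 on d10, 519, 583 and 549 on d15, and 633, 678 and 655 on d20. The d4 and d10 libraries lay above all others, and the d7 and d15 libraries below all others. RPL22L1 rose by 0.52 ± 0.08 on d4 (adjusted p = 6.773e-06) and by 0.48 on d10 and fell by 0.30 on d7 and by 0.20 on d15. The d15 call was lost without library 1 or 2 of d0 (log2 differences of -0.16 and -0.21, adjusted p = 0.1268 and 0.05272) and without library 1 or 3 of d15 (-0.16 and -0.20, adjusted p = 0.1219 and 0.06162).

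RPL22, its parent, was 14504, 14868 and 14717 on d0, 11821, 10712 and 11340 on d4, 11032, 10665 and 10728 on d10, and 13291, 13805 and 13759 on d15. It was lower than untreated on every treated day, by 0.24, 0.38, 0.29, 0.44, 0.11 and 0.42 from d1 to d20, and at d15 the difference was the smallest (adjusted p = 0.02803). This d15 call was lost without library 2 or 3 of d0 (log2 differences of -0.10 and -0.11, adjusted p = 0.07626 and 0.05834) and without library 1 of d15 (-0.093, adjusted p = 0.101). The log2 ratio of RPL22L1 to RPL22 was higher than on d0 by 0.90 ± 0.09 (SD, n = 3) on d4, 0.92 ± 0.09 on d10 and 0.47 ± 0.04 on d20, and it differed by 0.00 ± 0.13 on d7 and -0.09 ± 0.06 on d15. Over all 18 treated libraries against 3 untreated the difference was 0.42 (two-sided exact permutation p = 0.1128, adjusted 0.3383 over 6 pairs), with 12 treated libraries above and 3 below every untreated one.

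RPS27L, a paralogue of RPS27, was highest at d15. It had values of 570, 579 and 642 on d0, 585, 635 and 654 on d1, 680, 700 and 567 on d4, and 1127, 1055 and 721 on d7. Its values were 609, 610 and 653 on d10, 1070, 1157 and 1194 on d15, and 889, 907 and 870 on d20. The libraries of d7, d15 and d20 lay above every d0 library, and those of d1, d4 and d10 overlapped with d0. RPS27L rose by 0.67 ± 0.11 on d7 (0.87 without library 3), by 0.93 on d15 (adjusted p = 1.368e-07, a change of 90.8%) and by 0.57 on d20. The ratio of RPS27L to RPS27 was above every untreated library in 18 of 18 treated libraries, with a log2 difference of 0.53 (two-sided exact permutation test, p = 0.0007519, which is the lowest value 18 against 3 libraries can give, adjusted 0.004511 over 6 pairs). It was 0.25 ± 0.12 above d0 on d1, 0.45 ± 0.08 on d10, 0.68 ± 0.06 on d15 and 0.81 ± 0.03 on d20. The permutation test took all libraries as interchangeable, though the 18 treated ones were 3 each of 6 timepoints. Only d0 was untreated, so the p-value does not measure the spread between timepoints.

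RPL39L, RPL26L1 and RPL7L1 alternated. RPL39L, a copy of the tunnel protein RPL39 known from the testis, had values of 449, 474 and 463 on d0, 554, 584 and 537 on d10, 310, 326 and 345 on d15, and 510, 573 and 528 on d20. Its d15 libraries lay below and its d10 and d20 libraries above every d0 library. RPL39L was lower by 0.31 on d4, 0.30 on d7 and 0.50 on d15 (adjusted p = 6.934e-06) and higher by 0.27 on d10 and 0.21 on d20 (adjusted p = 0.02303). The d20 call was lost without library 1 of d0 or library 2 of d20 (0.19 and 0.17, adjusted p = 0.07274 and 0.1114). RPL39 was higher by 0.28 at d15 and rose by 0.49 from d10 to d15, where RPL39L fell by 0.77. RPL26L1 was lower by 0.42 on d4, 0.28 on d7 and 0.41 on d15, and fell by 0.49 from d10 to d15, where RPL26 rose by 0.40. RPL7L1, an assembly factor related to RPL7, was lower by 0.35 on d4, 0.26 on d7 and 0.41 on d15, and it was 0.16 higher on d10 but -0.066 with libraries rescaled to the same total. It fell by 0.57 from d10 to d15, where RPL7 rose by 0.22.

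The ratios of RPL26L1, RPL7L1 and RPL39L to their parents were above d0 at d10 and d20 and below it at d15, and their differences over all treated against untreated libraries, 0.03, 0.09 and -0.08, did not pass the test (exact permutation, adjusted p = 0.8917 in each). At d15 the 3 log2 ratios were lower than at d0 by 0.49 ± 0.02, 0.35 ± 0.04 and 0.78 ± 0.04. RPL36AL, which is not among the 80 by its name, fell by 0.23 from d10 to d15 and rose by 0.19 to d20, and its parent RPL36A had means of 118 ± 22.7 at d0 and 156 ± 16.9 at d4. RPL36A was called higher on d4, by 0.41, and on d15, by 0.34 (adjusted p = 0.03505), and it overlapped with d0 in single libraries on d15, where the lowest was 122 against d0 values of 96, 116 and 141. Without library 1 of d0 neither was called (0.27 on d4 and 0.21 on d15, adjusted p = 0.1092 and 0.2195). The d4 call was also lost without library 2 of d4 (0.32, adjusted p = 0.07756), and the d15 call without library 2 of d0 (0.34, adjusted p = 0.06831) or without library 2 or 3 of d15 (0.25 and 0.30, adjusted p = 0.1584 and 0.1059).

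**Figure D4:**
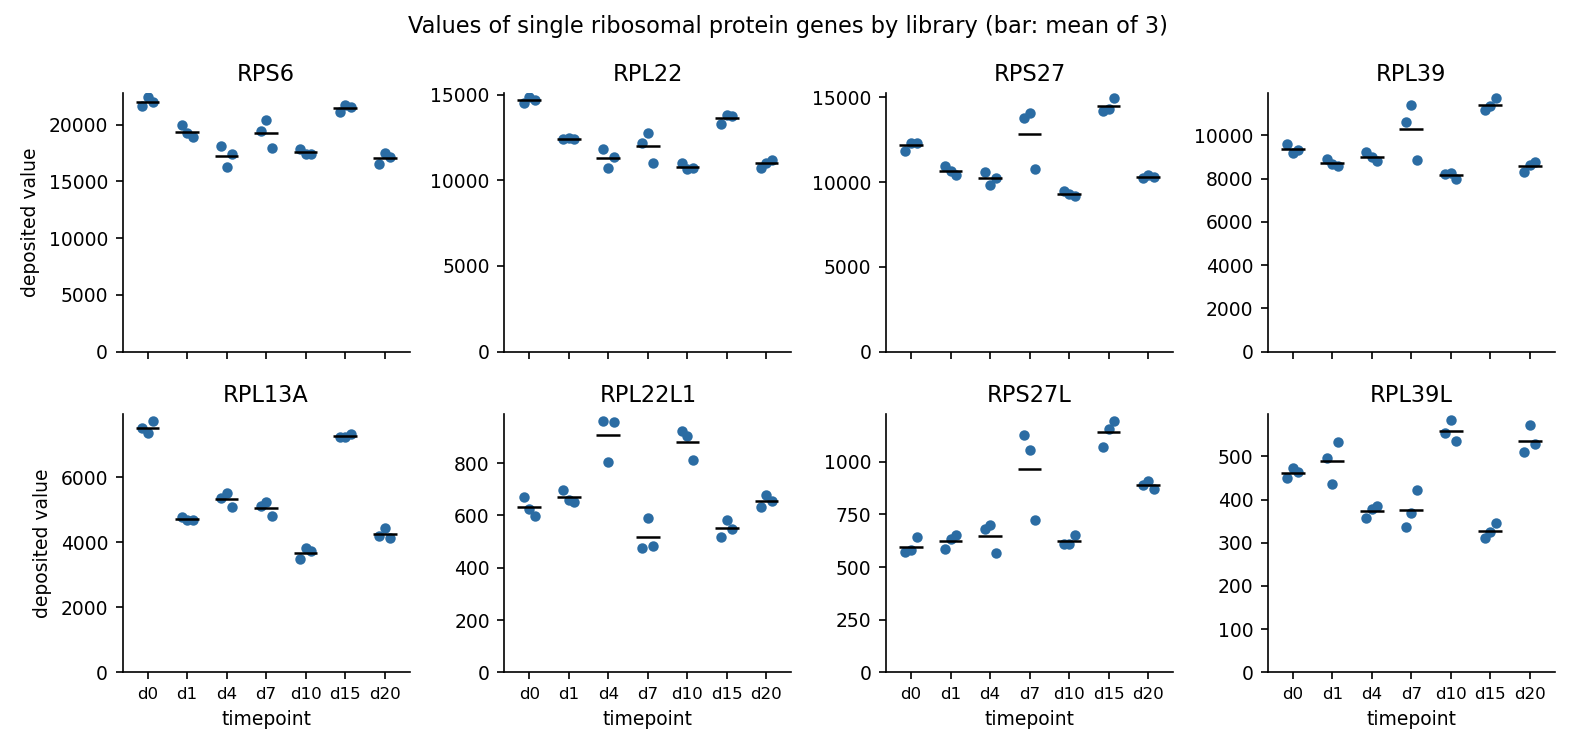
Deposited value (y axis, from 0) of 8 ribosomal protein genes in each library (points) by timepoint (x axis), with black bars for the mean of 3 libraries. RPS6, RPL22 and RPL13A are high on d0 and d15 and low on d10 and d20, RPL39L is lowest on d15, and RPS27L is highest on d15 with library 3 of d7 at 721 below the others at 1127 and 1055.

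Ribosomal proteins made as fusions with ubiquitin or a ubiquitin-like protein include the product of RPS27A, which is among the 80, and that of FAU, which is not. At d4 RPS27A fell by 0.28 and FAU fell by 0.21, and all 3 genes of the fusion list were called lower. On the other days the list was not called lower as a whole. None was called on d1, 1 was lower and none higher on d10, and 1 was higher and none lower on d15. On d7 and on d20, 1 was higher and 1 lower. Members with and without the TOP run were described by their medians and counts, and the difference between them was not tested. The 46 genes with the run had median log2 differences from d0 of -0.14, -0.28, -0.09, -0.25, 0.06 and -0.21 in order of the treated days, and the 19 without it -0.13, -0.29, -0.11, -0.17, 0.00 and -0.15. From d10 to d15 the medians were 0.30 and 0.32, and from d15 to d20 -0.29 and -0.21. Of the genes with the run 38 were lower at d10 and 35 at d20, and of those without it 12 and 11.

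Translation factors and other mRNAs with known TOP motifs, 21 tested of a list of 22, mostly fell on d1, d4, d7, d10 and d20 and rose at d15. Of them 1 was higher and 13 lower on d1, 5 higher and 13 lower on d4, 4 higher and 13 lower on d7, 3 higher and 15 lower on d10, 13 higher and 2 lower on d15, and 15 lower on d20. Without library 3 of d7, 4 were higher and 12 lower on d7. From d10 to d15, 15 rose and 3 fell with a median of 0.36, and from d15 to d20, 16 fell and 2 rose with a median of -0.36. EEF1A1, the elongation factor that brings aminoacyl-tRNA, rose by 0.70 from d10 to d15 and fell by 0.55 to d20, but both were 0.00 after quantile normalization, which gives the gene with the most reads the same value in every library. TPT1 rose by 0.64 from d10 to d15, EIF4A2 by 1.17 and EIF3E, an initiation factor subunit, by 0.43. At d15 against untreated, the same list had 7 higher and 8 lower with libraries rescaled to the same total, and 4 and 13 after quantile normalization.

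Ribosome assembly factors mostly rose at d1 and d10, where the ribosomal protein genes fell, and fell at d4, d7 and d15. Of 54 tested of a list of 56, 37 were higher and 2 lower on d1, 5 higher and 38 lower on d4, 48 lower on d7, 50 higher and 1 lower on d10, 3 higher and 46 lower on d15, and 15 higher and 10 lower on d20. Without library 3 of d7, 48 were also lower on d7. Their medians were 0.24, -0.37, -0.49, 0.51, -0.66 and 0.04. From d10 to d15, 52 fell and 2 rose with a median of -1.18, and from d15 to d20, 45 rose and 2 fell with a median of 0.68. On these steps 40.5% of all genes tested fell from d10 to d15, and 37.7% rose from d15 to d20. NOP56, a core protein of the box C/D small nucleolar particles, was 4695 at d10 and 1349 at d15, a fall of 1.80 ± 0.07 (adjusted p = 1.557e-15), and rose by 1.13 to d20. UTP20 of the small-subunit processome fell by 1.77, GRWD1 by 1.62, RRP1B by 0.68, RCL1 by 0.68 and the kinase RIOK1 by 0.53. The 2 that rose from d10 to d15 were NOB1, the nuclease that finishes the small-subunit RNA, by 0.47, and NMD3, the export adaptor of the large subunit, by 0.21. With libraries rescaled to the same total, 12 were higher and 10 lower at d1 and 1 higher and 28 lower at d20, so these 2 days gave no stable direction.

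The RNA polymerase I list had 14 genes, of which 11 fell and 3 rose from d10 to d15 (median -0.57), and 10 rose and 3 fell from d15 to d20. Of all genes tested, 40.5% fell and 39.3% rose on the first step, and 37.7% rose and 36.3% fell on the second. CD3EAP fell by 1.77, TWISTNB by 1.37, TAF1B by 0.91 and the initiation factor RRN3 by 0.46 on the first step, while TAF1D rose by 0.87 and POLR1D, a subunit shared with RNA polymerase III, by 0.51. Of 10 genes of the regulators of ribosomal protein synthesis, 9 fell and none rose from d10 to d15, and 6 rose and 2 fell to d20. EIF4E, the cap-binding factor, fell by 1.07 and rose by 0.82. MTOR fell by 0.55 and rose by 0.51, RPTOR fell by 0.42 and rose by 0.48, and RPS6KB1, an S6 kinase, fell by 0.44 and rose by 0.55. LARP1, which binds TOP mRNAs, fell by 0.60 from d10 to d15, RPS6KB2 by 0.41, EIF4EBP1 by 0.25, MAX by 0.18 and EIF4EBP2 by 0.17. The call of EIF4EBP1 was lost without library 2 or 3 of d10 or library 1 of d15, with log2 differences of -0.25 each (adjusted p = 0.05732, 0.05361 and 0.05369). MYC, an activator of ribosome genes, did not pass the test from d10 to d15 (-0.19, adjusted p = 0.4496) and fell by 1.00 from d15 to d20. These are mRNA levels and say nothing of the activity of mTOR or of the S6 kinases.

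**Figure D5:**
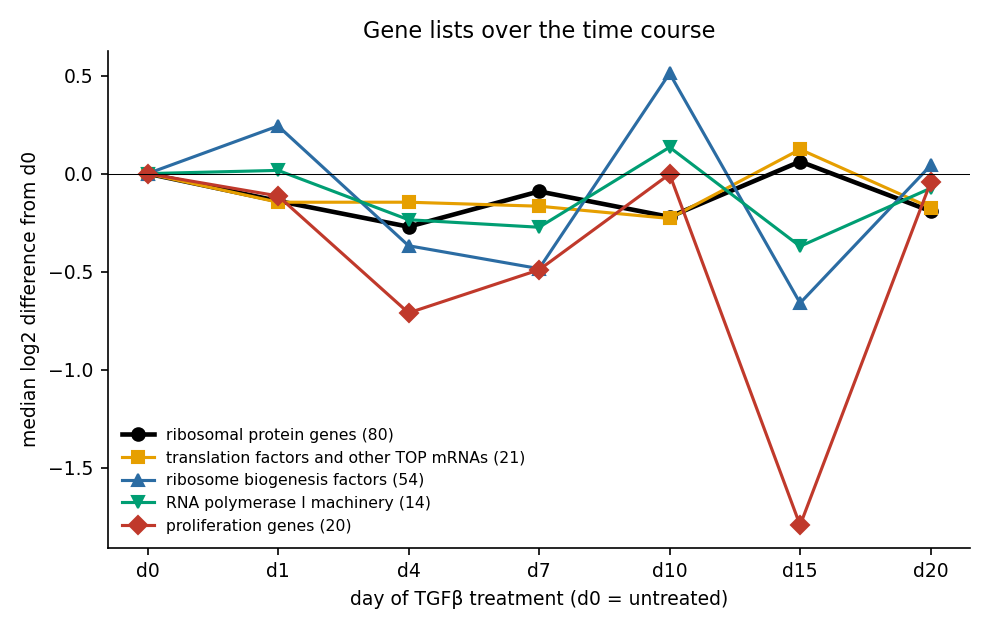
Median log2 difference from d0 (y axis) of the 80 ribosomal protein genes and of 4 other gene lists by timepoint (x axis), 3 libraries each. At d15 the ribosomal protein genes lie at 0.06 and the translation factors at 0.12, while the assembly factors lie at -0.66 and the proliferation genes at -1.79.

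At d15 proliferation genes moved against the ribosomal protein genes and CDKN1A and MDM2 moved in their direction, and the part of these changes in the result was not tested. All 20 proliferation genes fell from d10 to d15 (median -1.68) and all 20 rose from d15 to d20 (median 1.72). On d4 and d7 they moved with the ribosomal protein genes. Against d0, all 20 were lower on d4 (median -0.71), and 19 were lower and 1 higher on d7 (median -0.49). Of all genes tested, 35.3% were lower on d4 and 32.6% on d7. Proliferation genes were split on d1 (3 higher, 9 lower), d10 (5 and 4) and d20 (4 and 7). From d10 to d15 the log2 difference was -3.52 for E2F1, -3.25 for RRM2, -2.45 for MCM2, -1.01 for AURKA and -0.80 for TYMS. CDKN1A, the cell cycle inhibitor p21, was 1812 on d0, 16140 on d7, 2742 on d10, 23200 on d15 and 5801 on d20, higher than untreated by 2.87 on d7 (3.59 without library 3 of d7), 3.68 on d15 and 1.68 on d20. MDM2 was higher by 0.78 at d7 and by 1.18 at d15 and rose by 1.75 from d10 to d15. The d7 difference of MDM2 was 1.404 without library 3 of d7, and it was not called without library 1 or 2 of d7 (0.46 each, adjusted p = 0.1453 and 0.1476) or without library 2 of d0 (0.74, adjusted p = 0.05259). The summed value of the 9 epithelial markers also moved, from 352139 to 378003 on d0 to 201391 to 205213 on d10 and 499482 to 516750 on d15. The single markers did not move together. Of the 9, none was higher and 6 were lower than untreated at d10, and 5 were higher and 4 lower at d15. Their log2 differences from d0 at d15 ran from -2.43 to 2.25.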

How the data were processed

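RNA-seq libraries of HMLE cells, 3 for each of 7 timepoints, were grouped by the treatment given in the labels. The deposited values are one normalized signal for each gene symbol in each library, made by the authors by dividing the reads of a gene by one size factor per library, which was checked on the values: multiplied by the factor, 100% came out as whole reads within the rounding. The submitters' processing notes list STAR 2.7, Salmon 1.4 and the build hg19 without their roles, and the annotation, the strand setting and the counting of reads that map to several places are not given in the sources used here. The table headers carry the timepoint without a replicate number, so libraries are numbered by column only. No column was left unused, and no unassigned library was present. Depth was 18847917 to 22667754 reads per library, and intervals for counting error alone were not computed, since replicate spread was used.

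The test was limma 3.58.1 in R 4.3.3 (lmFit and contrasts.fit, then eBayes with its trend option) on log2(value + 1), one mean per timepoint over all 21 libraries, for genes with a mean of at least 10. Benjamini-Hochberg adjustment ran over all 13343 genes of a contrast, with a threshold of 0.05, and the p-values measure only the spread between these libraries. The relative test subtracted the mean log2 value of the 80 members from every gene of a library. Ratios of paralogue to parent were compared by two-sided exact permutation tests over libraries. These tests did not allow for the grouping of libraries by timepoint. Scripts were tested on simulated data. Alternatives were a pseudocount of 10, no filter, libraries rescaled to one total, quantile normalization, size factors without the members, only the groups compared, edgeR 4.0.16 and DESeq2 1.42.0 on recovered reads, the fit without d7, and each library left out.

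Transcript starts came from RefSeq (GRCh38.p14), matched by symbol for 65 of 80 members, and are not coordinates of the hg19 files. Transcript lengths were those of the longest GENCODE transcript of a symbol, known for 87.8% of the other genes. Members, gene lists and tests were chosen with earlier results of these data known. Named genes were 15 members with distinct roles, both genes of each tested paralogue pair, the 2 highest and 2 lowest members of each day, members called against the majority where they were at most 5, the 5 widest and 3 narrowest members, the 3 highest and 3 lowest relative to the others at d15 and d20, all regulators, CDKN1A and MDM2, stalk and ubiquitin fusion genes, and the 2 highest and 2 lowest of the other lists at d15 and d20. Others complete a count. A few listed genes are not reported here. Tables and figures were made in Python 3.11.15 with matplotlib 3.10.9.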

Additional observations from a re-analysis of the deposited data

Results flagged for a closer look

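The difference of the ribosomal protein genes from untreated cells changed between neighbouring timepoints, by a direct test of one timepoint against the next in limma. At d15 against d10, 66 of the 80 genes were higher and 6 lower, and at d20 against d15, 6 were higher and 66 lower. The 4 counts came from fits that shared the d15 libraries, and single d15 libraries had summed shares between 7.45% and 7.67%.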

How the results depend on the processing

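No paired analysis was possible because the table headers name only the timepoint of each library. Of the 80 members, the number called higher than d0 with libraries rescaled to the same total was 1 on d4, 2 on d7, 1 on d10, 8 on d15 and 1 on d20, and the number lower was 70 on d7 and 43 on d15. Under quantile normalization 2 were higher and 69 lower at d7, and 6 higher and 47 lower at d15. Of all 13343 genes, 6552 were lower at d7 with the same total and 5310 after quantile normalization. With only the groups compared 1 was higher on d1, and 3 were higher and 17 lower on d7, and without the d7 libraries 1 was higher on d1. Relative to the other members, quantile normalization gave 15 higher and 15 lower on d1, the groups compared alone gave 17 and 16 on d1, 6 and 6 on d7, 23 higher on d10 and 22 higher on d20, and the fit without d7 gave 17 and 18 on d1 and 24 higher on d10. On that measure DESeq2 gave 16 lower and no filter on low values gave 5 lower at d1. The assembly factors with the same total were 12 higher and 10 lower on d1, 2 higher on d4, 4 lower on d10, and 1 higher and 28 lower on d20, with quantile normalization 21 and 6 on d1, 3 higher on d4, 3 lower on d10, and 8 and 16 on d20, and without d7 4 lower on d1 and 2 lower on d10. The translation factors with the same total were 0 higher and 20 lower on d1, 1 higher on d4, 0 on d7, 0 on d10, 7 higher and 8 lower on d15, and 1 higher on d20 against d15. With quantile normalization they were 0 higher on d1, 2 on d4, 2 on d7, 0 on d10, 4 higher and 13 lower on d15, and 1 higher on d20 against d15. With only the groups compared they were 2 higher on d1 and 1 on d20, and without d7 2 on d1 and 2 on d20. Without the 3 members with the most reads the summed share was 7.003%, 5.542%, 5.129%, 5.884%, 5.039%, 6.641% and 5.285% from d0 to d20, with the same order of timepoints.

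Leaving out single libraries gave 0 to 1 members higher on d1, 1 to 3 on d4, 3 to 21 on d7 (the 3 without library 2 of d7 and the 21 without library 3) and 1 to 2 on d20, and, relative to the others, 4 to 8 lower on d1 and 11 to 22 higher on d7. It gave 0 to 1 assembly factors higher on d7, and for translation factors 0 to 1 higher on d20 and 1 to 2 higher on d20 against d15. Single genes changed sign under quantile normalization (RPL3 on d15 -0.19, RPS2 on d15 -0.58, RPLP1 on d7 -0.069 and on d15 -0.12, RPS19 on d7 -0.029, and EEF1A1 0.0 on both steps, by the construction of the method) or with the same total (RPL7L1 on d10 -0.066 and RPLP1 on d7 -0.042). The cause of the other changes was not tested. On recovered reads edgeR called 5356 of the 13343 genes higher and 5291 lower at d15 against d10, where limma called 5246 and 5403. Of 967 alternative counts, ratios and shares, 882 stayed within the limits set for them, among them each count of members at d15 against d10 and at d20 against d15. These limits were wide. The count of members lower at d1, 50 as deposited, was not marked as moved though it was higher with the same total and after quantile normalization.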

Other observations

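RPSAP52, a pseudogene of RPSA chosen after its values were seen, followed another course than the ribosomal protein genes. Its mean value was 12.6 on d0, 276.5 on d1, 128.2 on d4, 48.5 on d7, 267.8 on d10, 27.1 on d15 and 133.7 on d20. RPSAP52 overlaps HMGA2, a chromatin protein gene raised in EMT, on the opposite strand, and the strand setting of the counts is not stated, so reads of the overlapping part cannot be told apart. HMGA2 had means of 653.2 on d0, 5253 on d1, 8539 on d10, 2091 on d15 and 5639 on d20. Other pseudogenes of the family with the most reads moved less, RPL23AP53 between 376.0 at d20 and 515.4 at d15.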
